A study of Homo sapiens with 6 samples.

Results

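ZNFX1 and ZFAS1 are neighbouring genes on chromosome 20 that are transcribed away from each other, and the METTL14 chromatin signal over the pair was examined in HepG2 cells, an established line from a human liver carcinoma. The locus was the hg19 window chr20:47850000-47912000. Its members were all candidate islands overlapping the window by at least 1 bp, whether or not IP exceeded input. These were 10 of 67802 candidate islands in cells given DRB and 3 of 38696 in untreated cells. The gene pair was selected on immunoprecipitation (IP) and input reads of these same tables, so its values and calls are a description and no independent test of it.

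The cells of both conditions carried METTL14 overexpressed from a lentivirus, with an HA tag at the N-terminus and EGFP at the C-terminus, and GFP-high cells had been sorted after puromycin selection. Chromatin was precipitated with an HA antibody and sequenced beside input DNA. The DRB condition, 100 µM for 3 h, had 1 IP and 1 input library, and the untreated condition had 2 of each. The deposited values are 1 table of reads per island for each condition, with the untreated replicates already combined, and the spread between replicates is unknown. Values in brackets after a fold or ratio are exact 95% intervals, which take in counting error and nothing else. Cells without the tagged protein are not analysed here, and signal from overexpressed METTL14 need not match that of the endogenous protein.

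ZFAS1 is a long non-coding RNA that hosts C/D box small nucleolar RNAs in its introns and was named for being antisense to the start of ZNFX1. ZNFX1 encodes an NFX1-type zinc finger helicase, which is induced by interferon and is reported to sense viral double-stranded RNA. METTL14 binds RNA and pairs with the enzyme METTL3 to place N6-methyladenosine on nascent transcripts. DRB inhibits the kinase CDK9 and thereby holds RNA polymerase II near the start of genes, so the 2 conditions ask how METTL14 signal over a transcribed locus differs when elongation is blocked.

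On hg19, ZNFX1 was placed at 47854483 to 47894963, a span of 40.5 kb, and ZFAS1 at 47894715 to 47905797, a span of 11.1 kb. At their starts these spans share 249 bp. In RefSeq's gene table for GRCh38.p14, where both IDs matched (57169 for ZNFX1 and 441951 for ZFAS1), ZFAS1 also has 11083 bp, whereas ZNFX1 has 32158 bp and the spans are 120 bp apart. The hg19 span of ZNFX1 is therefore the longer of the 2 annotations. Inside ZFAS1 that table lists 3 small nucleolar RNA genes, SNORD12C, SNORD12B and SNORD12. The islands can be placed only on hg19, so the small nucleolar RNA genes were not placed within them. For the same reason islands were assigned to ZNFX1 by its longer hg19 span. Which islands, and so which folds, the shorter span would give ZNFX1 was not tested. The left edge of the DRB island assigned to both genes lay at -0.114 kb from the start of ZFAS1. If the gap of 120 bp holds on hg19, that edge lies within it, and the assignment to ZNFX1 rests on the longer span. The DRB fold of ZNFX1 is given below with and without this island.

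The promoter of ZFAS1 is shown because the start of ZFAS1 lay inside an island in both conditions. RefSeq's table holds it for GRCh38.p14 at chr20:49278392-49278691 on the plus strand, with 250 bases before the annotated start and 50 from it; ZNFX1 has no entry. Capitals mark matches to GGGCGG (the GC box), GCGGGAAA (an E2F core), TATATAA (the core of the TATA box) and the run of C and T letters over the annotated start.
ZFAS1 promoter: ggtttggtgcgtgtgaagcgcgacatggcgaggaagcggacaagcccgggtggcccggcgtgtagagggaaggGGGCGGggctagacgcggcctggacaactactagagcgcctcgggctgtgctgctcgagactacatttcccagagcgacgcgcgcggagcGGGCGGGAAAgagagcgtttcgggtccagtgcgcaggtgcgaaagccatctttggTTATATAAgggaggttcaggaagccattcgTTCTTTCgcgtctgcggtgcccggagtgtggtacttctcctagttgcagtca

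Transcripts of small nucleolar RNA host genes are known to begin with a run of pyrimidines. In the ZFAS1 promoter the run over the annotated start had 7 letters, and 5.90% of the 35116 promoters in the table had one as long. It spans bases 249 to 255, with 250 bases before the annotated start. The run thus begins ahead of the start, and the pyrimidines of the transcript itself were not counted. Each motif was searched on both strands. GGGCGG occurred at 2 places, and 45.0% of all promoters hold it. GCGGGAAA occurred once, overlapping the second of these, and 1.63% of promoters hold it. TATATAA occurred on both strands in 1 overlapping place, with its plus-strand match beginning 31 bases before the start, and 2.57% of promoters hold it. CCAAT, in 34.6% of promoters, and GGACT, the DNA letters of a common METTL3 target motif in RNA and in 44.2% of promoters, were not in this window. The promoter held 30 CpG dinucleotides, and 22.4% of promoters held as many. These matches describe letters, and binding of any factor to them was not tested.

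After DRB the window held 10 islands of 0.8 to 7.0 kb, with a fold under 1 over ZFAS1. In untreated cells, by contrast, 1 broad domain of raised IP signal took in all of ZFAS1 and 19963 of the 40481 bp of ZNFX1. Over ZFAS1, the islands had 203 IP and 210 input reads after DRB, a fold of 0.832 (0.683 to 1.01), against 3347 IP and 2918 input reads and a fold of 1.23 (1.17 to 1.29) in untreated cells, all from 1 island that also covers part of ZNFX1. A fold here divides IP by input reads and applies the authors' scaling constant, which was 0.861 for DRB and 1.07 for untreated cells. Over ZNFX1, the fold was 1.05 (0.886 to 1.25) after DRB and 1.21 (1.16 to 1.27) in untreated cells. Without the island it shares with ZFAS1, the DRB fold of ZNFX1 was 1.50 (1.16 to 1.96). A median DRB candidate had a fold of 1.51, so this interval above 1 does not set ZNFX1 apart from other DRB candidates. The interval of ZFAS1 after DRB lay wholly below that of the untreated island. The intervals of ZNFX1 in the 2 conditions overlapped with or without the shared DRB island.

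**Figure D1:**
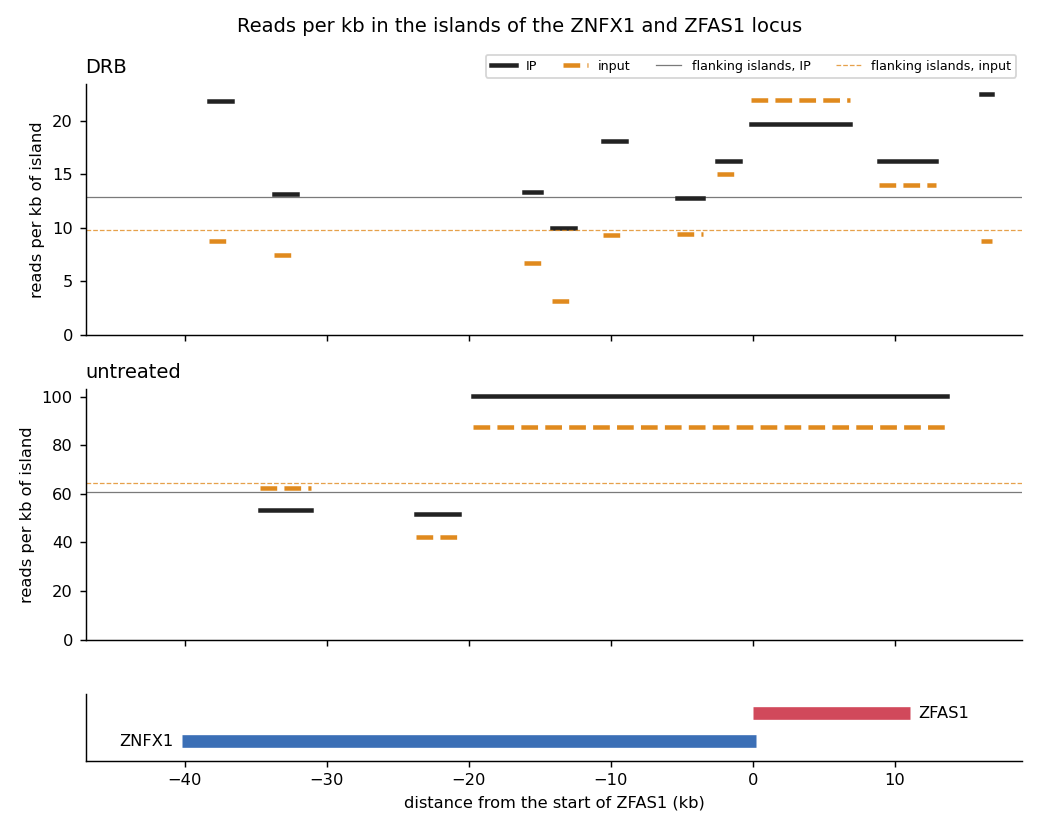
IP reads (black) and input reads (orange, dashed) per kb of each island, after DRB (above) and in untreated cells (below), against the distance from the start of ZFAS1 in kb; thin lines give the pooled density of the flanking islands, and bars at the bottom the 2 genes. After DRB the IP line lies below the input line at the start of ZFAS1 (19.7 against 22.0 reads per kb), while in untreated cells 1 island with 100.2 IP and 87.4 input reads per kb covers both starts.

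The deposited significant lists were also read at the pair. None of the 10 DRB islands was in the DRB list, where 4.76% of all candidates were called at the authors' false discovery rate (FDR) of 1e-04. At that share 10 candidates can readily hold no call, so their absence is no result about the pair. In untreated cells 1 of the 3 islands was in the list, where 5.10% of candidates were called. That island is the broad domain, with a deposited FDR of 8.39e-29. The locus was chosen from these reads, so its calls carry no weight beyond a description.

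The islands over ZFAS1 after DRB were 2. The first, at 47894601 to 47901600, is 7.0 kb wide, and 98.4% of it lies in ZFAS1, with its left edge over the start of ZNFX1. It had 138 IP and 154 input reads, a fold of 0.771 (0.608 to 0.977). This was the only 1 of the 10 DRB islands whose whole interval lay below 1. The second, at 47903601 to 47907600, covers the far end of ZFAS1 and had 65 IP and 56 input reads, a fold of 0.999 (0.688 to 1.45). Both had a deposited p-value and FDR of 1.

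In untreated cells ZFAS1 had no island of its own. The domain at 47875001 to 47908400 is 33.4 kb wide and takes in the whole of ZFAS1, the start of ZNFX1 and the ZNFX1 gene body next to it. ZNFX1 accounts for 59.8% of its length and ZFAS1 for 33.2%, so its reads cannot be divided between the genes. The untreated value given for ZFAS1 is therefore that of the whole domain, and it is also the largest component of the untreated value of ZNFX1.

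Along ZNFX1 after DRB, 7 islands of 1.2 to 1.8 kb lay over ZNFX1 and not over ZFAS1. The values ran from 0.932 next to the start of the gene to 2.75 in its body, with wide intervals. The island at 47856401 to 47858000, near the 3′ end, had 35 IP and 14 input reads, a fold of 2.15 (1.13 to 4.33), and was the only 1 of the 10 with an interval above 1. Its authors' FDR of 0.000234 missed the list. The next, at 47861001 to 47862600, had 21 IP and 12 input reads and a fold of 1.51 (0.708 to 3.36). These are the 2 DRB islands of ZNFX1 that lie outside the untreated domain.

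The other 5 lay inside the extent of the untreated domain. At 47878601 to 47879800 there were 16 IP and 8 input reads, a fold of 1.72 (0.695 to 4.65). The highest DRB fold of the locus, 2.75 (0.964 to 9.61), was at 47880601 to 47882200 and rested on 16 IP and 5 input reads. At 47884201 to 47885800 there were 29 IP and 15 input reads, a fold of 1.66 (0.863 to 3.34). Nearer the start, the island at 47889401 to 47891200 had 23 IP and 17 input reads, a fold of 1.16 (0.595 to 2.32). The island next to the start, at 47892201 to 47893800, had 26 IP and 24 input reads and a fold of 0.932 (0.515 to 1.70). The intervals of all 5 included 1 and overlapped one another, so no order among them is resolved at this depth.

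In untreated cells ZNFX1 had 2 further islands outside the domain. The island at 47871001 to 47874000 in the gene body, 1.0 kb from the domain, had 155 IP and 127 input reads, a fold of 1.31 (1.03 to 1.67) with an authors' FDR of 0.00382. That at 47860001 to 47863600, nearer the 3′ end, had 192 IP and 224 input reads, a fold of 0.920 (0.754 to 1.12). Together they had a fold of 1.06 (0.912 to 1.23), against 1.23 (1.17 to 1.29) for the domain on the start side of the gene, with overlapping intervals. The fold of the island beside the domain was above that of the domain, and the fold of the island nearer the 3′ end was below it. At this 3′ place the DRB fold of 1.51 and the untreated fold of 0.920 had overlapping intervals.

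**Figure D2:**
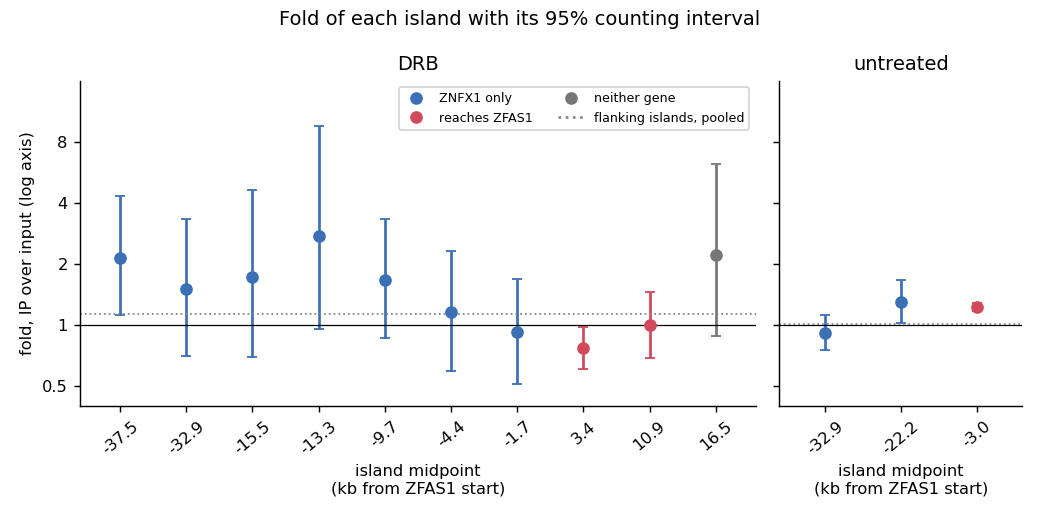
Fold of IP over input (log axis) for each island in order along the locus, after DRB (left) and in untreated cells (right), with exact 95% counting intervals; dotted lines give the pooled fold of the flanking islands, 1.13 after DRB and 1.01 in untreated cells. The 2 DRB islands that reach ZFAS1 have folds of 0.771 and 0.999, and the untreated domain has 1.23.

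A single further DRB island lay in the window but in neither gene, past the 3′ end of ZFAS1 at 47910801 to 47911600. It had 18 IP and 7 input reads, a fold of 2.21 (0.882 to 6.27). Just outside the window, the nearest islands had folds of 0.661 and 1.63 after DRB and of 0.801 and 1.04 in untreated cells. On the ZNFX1 side both conditions thus had a fold under 1 at the neighbouring island. The interval was 0.434 to 1.001 after DRB, which includes 1, and 0.682 to 0.940 in untreated cells.

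Compared over the extent of the untreated domain, the DRB fold was the lower. The 7 DRB islands there covered 18.8 kb, 56.3% of the domain, and the other 14.6 kb held no DRB candidate and so no DRB value. They had 313 IP and 279 input reads, a fold of 0.966 (0.819 to 1.14), against 1.23 in untreated cells, a DRB fold over untreated fold of 0.785 (0.660 to 0.932). With the DRB input as it was, the untreated fold would have given 399 IP reads. At ZFAS1 the ratio to the domain was 0.676 (0.551 to 0.829), and 203 IP reads stood where the untreated fold would give 300.3. For the 5 DRB islands of ZNFX1 inside the domain and outside ZFAS1, the fold was 1.37 (1.01 to 1.88) and the ratio to the domain 1.11 (0.814 to 1.54). That fold was not above the 1.51 of a median DRB candidate. For all of ZNFX1 the ratio was 0.867 (0.726 to 1.04). These ratios set islands of unlike extent side by side, and compare 2 tables of libraries and not replicated conditions.

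The DRB fold of ZFAS1 was also lower than that of ZNFX1 within the same libraries. The 7 islands of ZNFX1 alone had 166 IP and 95 input reads, and the fold of ZFAS1 over theirs was 0.553 (0.397 to 0.769). IP reads per kb were not lower at ZFAS1, at 18.5 against 15.1 in the ZNFX1 islands, a ratio of 1.22 (0.991 to 1.51). Input reads per kb were 19.1 against 8.64, a ratio of 2.21 (1.73 to 2.85). The lower fold of ZFAS1 thus went with denser input. Width moves with it too: DRB islands of chromosome 20 as wide as those of ZFAS1, 4.0 to 7.0 kb, had a median fold of 1.13 (quartiles 0.965 and 1.32), and those as wide as the ZNFX1 islands 1.49 (1.17 and 1.85). The part of island width and input density in the difference was not tested.

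Set against the islands within 1 Mb on either side, ZFAS1 had a low fold after DRB and the domain a high one in untreated cells. The 189 flanking DRB islands had a pooled fold of 1.13 (1.09 to 1.17) and a median of 1.25 (quartiles 1.02 and 1.60). The 94 untreated ones had a pooled fold of 1.01 (1.00 to 1.03) and a median of 1.01 (quartiles 0.948 and 1.07). The whole window had 0.944 (0.807 to 1.10) times the flanking fold after DRB and 1.20 (1.14 to 1.26) times in untreated cells. The ZFAS1 islands after DRB had 0.736 (0.601 to 0.899) times and the untreated domain 1.21 (1.15 to 1.28) times the flanking fold. The ZNFX1 islands without ZFAS1 had 1.33 (1.02 to 1.73) times after DRB and 1.05 (0.899 to 1.22) times in untreated cells. Their DRB fold of 1.50 was near the median of 1.49 for chromosome 20 DRB islands of like width, 1.2 to 1.8 kb. The DRB ratio to the flank thus does not set them apart from islands of their width. For ZFAS1 the fold was 0.832 and the median at like width, 4.0 to 7.0 kb, was 1.13.

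Read density was set against the flank within each condition. At ZFAS1 after DRB, IP reads per kb were 1.44 (1.24 to 1.65) times and input reads per kb 1.95 (1.69 to 2.24) times those of the flank. In the untreated domain the order was the reverse, with 1.65 (1.59 to 1.71) times for the IP and 1.36 (1.31 to 1.41) times for the input. The islands compared cover 11 kb after DRB and 33.4 kb in untreated cells, so these ratios measure no change of IP or input between conditions, and no untreated density over ZFAS1 alone is known. After DRB the ZNFX1 islands without ZFAS1 had 1.18 (1.00 to 1.37) times the flanking IP density and 0.884 (0.714 to 1.08) times the input density. The DRB island at the start of ZFAS1 had 22.0 input reads per kb, rank 90 of 4782 on chromosome 20, and the untreated domain 87.4, rank 61 of 2732.

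**Figure D3:**
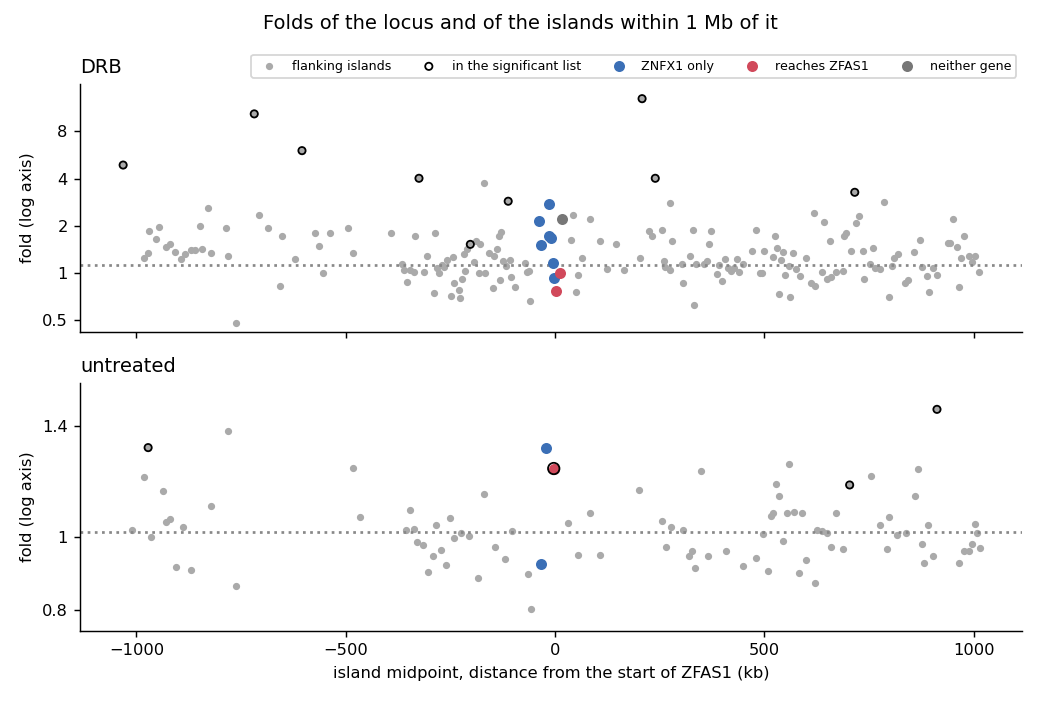
Folds (log axis) of the islands of the locus and of all islands within 1 Mb, by distance of the island midpoint from the start of ZFAS1, after DRB (above) and in untreated cells (below); ringed points are in the authors' significant list and the dotted line is the pooled flanking fold. The DRB islands that reach ZFAS1 lie under the line of 1.13, while the untreated domain at 1.23 is ringed and lies above all but 5 of 94 flanking islands.

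In the neighbourhood, 9 of the 189 flanking DRB islands and 3 of the 94 untreated ones were in a significant list. Over all candidates 4.76% were called after DRB and 5.10% in untreated cells, and on chromosome 20 2.47% and 2.34%. The neighbourhood is thus not set apart by its number of calls. The 9 DRB islands of the list within 1 Mb had 12 to 147 IP reads, and 8 of them rested on 9 or fewer input reads. The other, at 47686601 to 47698200, had 147 IP and 83 input reads and a fold of 1.52 (1.16 to 2.02). In untreated cells 3 islands were listed. That at 48800201 to 48814000 had the highest fold of the flank, 1.47 (1.36 to 1.60) from 1506 IP and 1096 input reads. Those at 46920401 to 46925200 and 48592801 to 48604200 had folds of 1.31 (1.11 to 1.56) and 1.17 (1.06 to 1.29). Within this stretch the pair's domain was exceeded in IP reads by 1 flanking island and in width by 1.

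The untreated domain combined great width with a fold that wide islands seldom had. Among the 152 untreated islands of chromosome 20 of at least 20 kb, whose median fold was 0.996, none had a higher fold. Among the 1246 such islands of all chromosomes, with a median fold of 1.01, 10 had a higher one. On chromosome 20 every island with a higher fold was narrower than 20 kb. Over all widths the domain ranked 191 of 2732 there by fold, but 28 by IP reads, 58 by width and 3 by the authors' p-value. A fold of 1.23 is a shallow enrichment even so. The width class of 20 kb was chosen after the values were seen.

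After DRB the island at the start of ZFAS1 was deep for its condition and low in fold. It ranked 44 of 4782 on chromosome 20 by IP reads and 4627 by fold. Among the 119 DRB islands of chromosome 20 with at least 100 IP reads, whose median fold was 1.01, 9 had a lower fold. Among all DRB candidates, 2.03% had a lower fold.

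**Figure D4:**
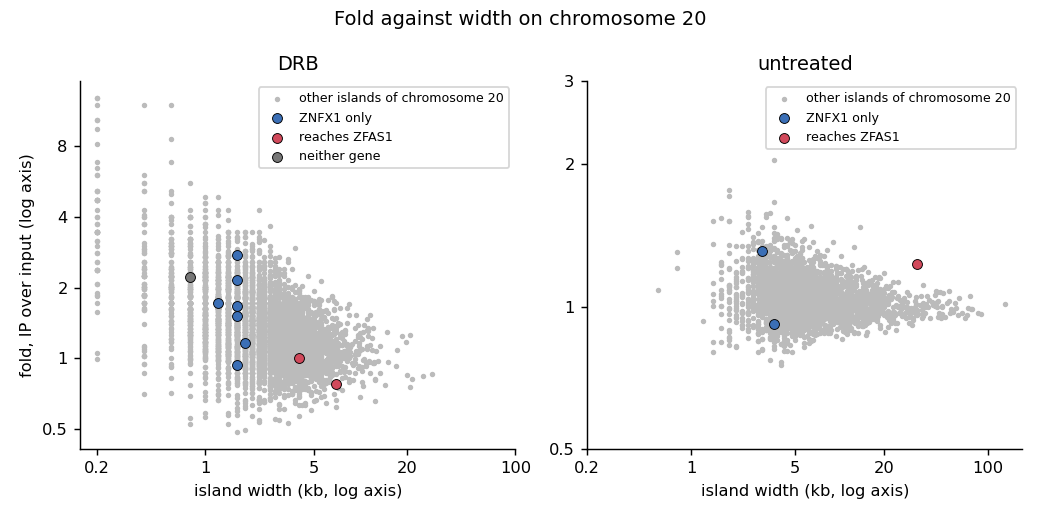
Fold (log axis) against island width in kb (log axis) for all islands of chromosome 20, after DRB (left) and in untreated cells (right), with the islands of the locus coloured by gene. The untreated domain of 33.4 kb has the highest fold of the islands of at least 20 kb, and the 7.0 kb DRB island at the start of ZFAS1 lies near the lower edge.

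By fold, the domain ranked 42 of the 64 untreated significant islands of chromosome 20. The 3 next above it, at 12194401 to 12202200, 302601 to 312800 and 6709201 to 6716600, had folds of 1.28, 1.28 and 1.29. The 3 next below, at 9068601 to 9080800, 31267001 to 31275800 and 49014201 to 49023600, had folds of 1.22, 1.22 and 1.22. These were 7.4 to 12.2 kb wide, so at a like fold the domain was the widest, and its interval overlapped each of theirs. After DRB, the 4 of them with DRB islands had folds of 0.691 (0.530 to 0.899) at 302601, 0.883 (0.636 to 1.23) at 31267001, 0.989 (0.769 to 1.27) at 49014201 and 1.46 (0.633 to 3.58) at 6709201, against 0.966 for the pair's domain.

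A DRB fold below the untreated one was common at wide untreated islands, which had been called on their untreated reads. Of the 23 untreated significant islands of chromosome 20 of at least 10 kb, 22 lay over DRB islands, and the DRB fold was lower in 15 of them, with a median ratio of 0.893. The whole interval lay below 1 in 6, the pair's domain included, and above 1 in 0. With a ratio of 0.785 the domain ranked 6 of 22 from the lowest, which was 0.540 (0.408 to 0.714) at 302601 to 312800. The width class of 10 kb was chosen after the values were seen.

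**Figure D5:**
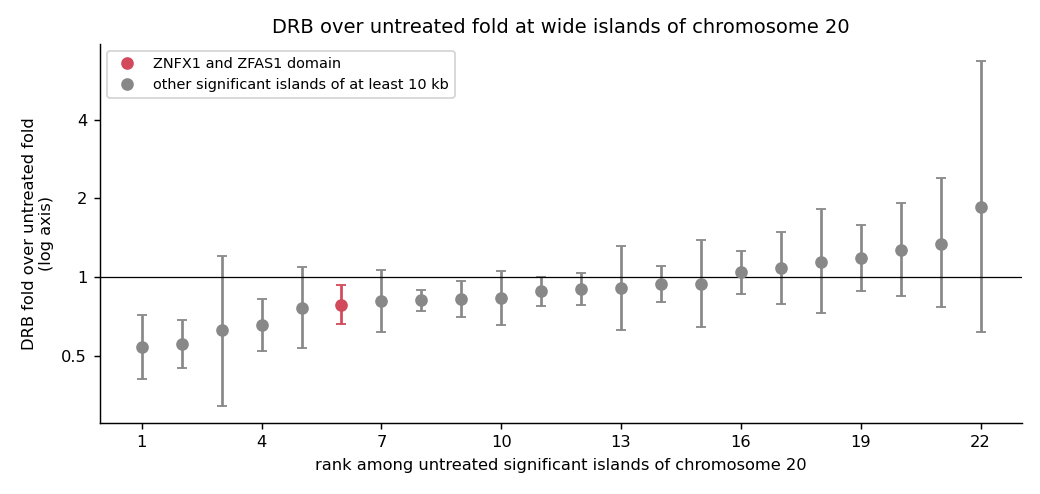
DRB fold over untreated fold (log axis) with exact 95% counting intervals at the 22 untreated significant islands of chromosome 20 of at least 10 kb that lay over DRB islands, in rank order, with the ZNFX1 and ZFAS1 domain in red. The domain has 0.785, and 15 of the 22 lie below 1.

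Depth sets how far the DRB values can be read. Outside the mitochondrial genome, the candidate islands held 1977419 IP and 1330018 input reads after DRB and 14495388 IP and 14661480 input reads in untreated cells. At the pair this left 387 IP and 312 input reads after DRB, against 3694 IP and 3269 input reads in untreated cells. A median DRB candidate had 21 IP and 13 input reads and a fold of 1.51, where a median untreated candidate had 241 and 240 reads and a fold of 1.08. Folds of the conditions thus have unlike baselines. With the mitochondrial genome included, the candidate islands held 2411436 IP and 2726149 input reads after DRB. In untreated cells they held 15339872 IP and 16034656 input reads. In both conditions mitochondrial reads were a larger part of the input than of the IP, and the gap was wider after DRB. What part this has in the DRB folds and in their ratios to the untreated ones was not tested.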

How the data were processed

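The series holds 6 anti-HA ChIP-seq and input libraries. Per the submitters' processing notes, FastQC 0.11.5, Bowtie 1.1.2, SICER and hg19 were used; how the untreated replicates were combined, or with which SICER settings, is information not given in the sources used here. The tables have no headers, so columns were identified from their values. The deposited counts are raw IP and input reads per island. The deposited fold, a ratio, equals IP over input reads times 1 constant per table. The deposited p-values and FDRs are the authors', and the significant lists equal the islands with an FDR under 1e-04.

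Positions are 1-based. An island belonged to a gene if it overlapped it by 1 bp, and the flank was 1 Mb on either side. Fold intervals are Clopper-Pearson intervals of the IP share, and intervals of ratios are exact conditional ones, all at 95%. Reads are not independent molecules, so they cover counting error only. An exact binomial test of every island, with Benjamini-Hochberg adjustment over all islands, was run as an alternative to the authors' calls and was tested on simulated data. It took in the islands of the pair, whose calls are a description. The members, lists and classes were chosen with earlier results of these data known. Named islands were all those of the window and the 3 significant islands of chromosome 20 next above and below the domain by fold. Lists of other snoRNA host and antiviral genes were not run, since no hg19 annotation was used here. Promoter sequence and gene names are RefSeq's for GRCh38.p14. The software was Python 3.11.15 with SciPy 1.17.1, pandas 2.3.3, numpy 2.4.6 and, for figures, matplotlib 3.10.9.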

Additional observations from a re-analysis of the deposited data

How the results depend on the processing

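Of 31 alternative values over 10 results, 28 stayed within the counting interval of the value given, or kept the count of called islands, and 3 moved beyond it. These counts do not describe direction: in 4 alternatives the value crossed 1. Some of the 28 used the same islands as the value given and so could not differ from it. The ZFAS1 DRB fold with islands assigned by at least 50% of their length was 1 of these. With islands assigned by at least 50% of their length, the island at the start of ZFAS1 leaves ZNFX1, whose DRB fold becomes 1.50 (1.16 to 1.96) and DRB over untreated ratio 1.24 (0.954 to 1.62), against 0.867 (0.726 to 1.04). The untreated fold of ZNFX1 stays at 1.21, since the domain, with all of ZFAS1 in it, remains assigned to ZNFX1. ZFAS1 is thus left out of the DRB side of this ratio only. With the DRB islands of the untreated domain outside ZFAS1 islands, set against the domain, an alternative chosen after seeing the data, the ratio was 1.11 (0.814 to 1.54). It was 0.777 (0.650 to 0.928) when scaled to the flanking islands and 0.815 (0.677 to 0.982) for islands that overlap one of the other condition, both with an interval below 1. The direction of the ZNFX1 ratio thus depends on the islands assigned to it. Scaled to the flanking islands, the DRB fold of ZNFX1 was 0.929 (0.783 to 1.10). ZFAS1 has no untreated value at 50%, since the domain lies mostly outside it. The ZFAS1 ratio ran from 0.606 when scaled to the flanking islands to 0.687 when scaled to islands of at least 10 kb. Against the flanking islands above the upper quartile of IP reads, also chosen after seeing the data, the window had 1.03 (0.879 to 1.21) times their fold after DRB, where all flanking islands gave 0.944, and 1.20 (1.14 to 1.26) times in untreated cells. Against the median of the flanking folds the DRB value was 0.853 (0.733 to 0.993), with its interval below 1.

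No paired analysis was possible because the replicates are combined in the deposited tables, and for the same reason leaving out each replicate was not run.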
